A study of Mus musculus with 12 samples.

Results

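The matrix metalloproteinases (Mmp), the ADAMTS proteases (Adamts) and the tissue inhibitors of metalloproteinases (Timp) were followed in laser-captured epithelium and stroma of mouse mammary tumours with and without the retinoic acid receptor gene Rarb. Genes were taken by symbol: Mmp with a number, Adamts with a number, and Timp1 to Timp4. Of 46 such mouse genes in the RefSeq table, 45 had a named probe (59 probes), out of 20660 named genes on the array, and Mmp27 had none. After a filter on dim probes, 26 of the 45 genes and 13350 genes in all entered the tests.

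All animals were FVB mice carrying the MMTV-Wnt1 transgene, in which the mouse mammary tumour virus promoter drives Wnt1 mainly in mammary epithelium. Tumours were labelled Rarb -/- (KO, numbers 1, 3 and 4) or Rarb +/+ (WT, numbers 1, 2 and 3), and no source used here states the ages of the mice. Tumour epithelium and tumour stroma were cut from each of the 6 tumours, which gave 4 groups of 3 arrays: epithelium and stroma of KO tumours and of WT tumours. Sample RNA was labelled with Cy3 and set on every array against Cy5-labelled Universal Mouse Reference RNA, so each value is a log2 ratio of sample over reference. No source used here says that the numbers are separate mice, so p-values reflect only how far these samples spread, which may be technical.

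Matrix metalloproteinases are zinc enzymes made as inactive proenzymes, and between them they cut collagens, gelatin, laminin, fibronectin and many signalling proteins at and around the cell surface. ADAMTS proteases are secreted relatives with thrombospondin repeats: one branch trims the ends of fibrillar procollagens, another cuts large proteoglycans such as aggrecan and versican, and several have few known substrates. Timps bind the active site of these enzymes and block them. In the mammary gland this system remodels the matrix around ducts during growth and involution, and in mammary tumours much of it is made by fibroblasts and macrophages.

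Between 36.0% and 46.3% of probes were well above background in Cy3 on an array. All 6 epithelial arrays were on 1 slide and all 6 stromal arrays on the other, so compartment and slide cannot be told apart, and KO and WT arrays were in different rows of both slides, so genotype and row cannot be told apart either. The Rarb probe above background on all 12 arrays did not differ between KO and WT in either compartment (log2 differences of -0.04 in epithelium, adjusted p = 0.994, and 1.14 in stroma, adjusted p = 0.402). Where the deletion falls relative to this probe is unknown here, so its level does not check the labels. Across genes, arrays of WT epithelium and WT stroma correlated with a mean r of 0.81 and those of KO epithelium and KO stroma with a mean r of 0.57. Genes are not independent replicates, so no p goes with these values.

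Markers of cell types moved with genotype in stroma. A gene is said to rise or fall where it passed an adjusted p of 0.05 in limma. Of all 13350 genes, 3.48% rose and 2.84% fell in KO stroma. The mean log2 ratio of 11 fibroblast markers lay between 3.17 and 3.62 on the KO stromal arrays and between 0.54 and 2.15 on the WT stromal arrays, and 2 of the 11 rose in KO stroma (Fap and Pdgfra). For 9 macrophage markers the ranges were 3.45 to 3.97 in KO stroma and 1.14 to 2.62 in WT stroma, and 2 of the 9 rose (Aif1 and C1qc). For 9 luminal epithelial markers they were 0.69 to 1.85 in KO stroma and 2.26 to 3.11 in WT stroma, and 4 of the 9 fell (Krt8, Krt18, Elf5 and Cldn3). Other lists did not overlap between KO and WT stroma either, although none of their genes passed: endothelium (1.74 to 2.60 in KO and 1.0 to 1.43 in WT), adipocyte (0.80 to 4.78 and 0.36 to 0.78), neutrophil (0.34 to 1.12 and -0.44 to 0.32), and basal and myoepithelium, lower in KO (2.07 to 3.43 and 3.79 to 4.19). T and NK cell markers overlapped (-0.46 to 1.23 in KO and -0.06 to 4.02 in WT). The 4.02 was on WT stroma 2, which stood apart from WT stroma 1 (-0.06) and WT stroma 3 (0.19). Epcam was not well above background on any KO stromal array, and Cd163 and Cdh1 were not on any of the 12 arrays. Labelled epithelium also held stromal markers: Col1a1 was above background on all 6 epithelial arrays. Labelled stroma held luminal markers too: Krt8 was above background on all 6 stromal arrays, though Foxa1 was on only 1. Within tumours the luminal mean in stroma minus that in epithelium ran from -0.59 to -0.40 in WT and from -2.67 to -2.17 in KO. The fibroblast mean on WT epithelium 2 was 1.46, above the 0.54 of WT stroma 2 from the same tumour.

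**Figure D1:**
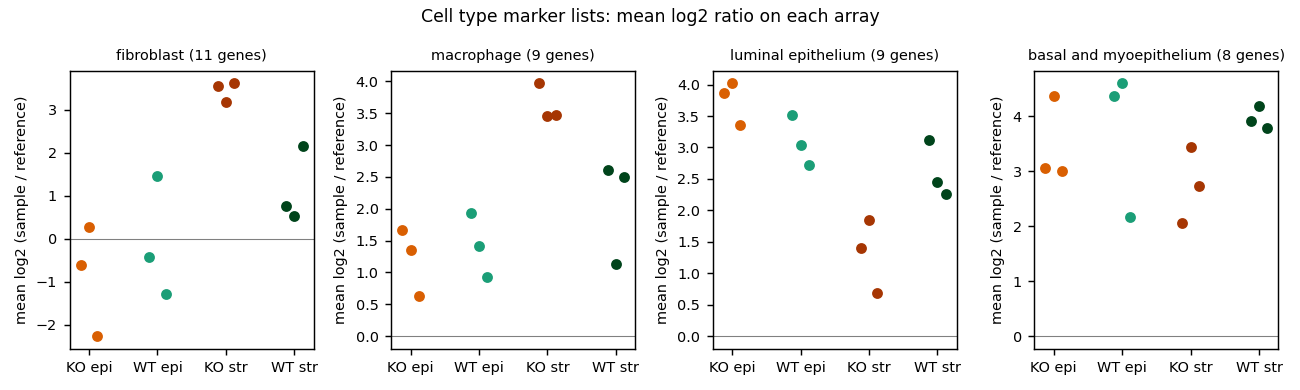
Mean log2 ratio of sample over reference for 4 cell type marker lists on each of the 12 arrays, by group (KO or WT, epithelium or stroma). For the fibroblast and macrophage lists the 3 KO stromal arrays lie above all other arrays, and for the luminal list the 3 KO stromal arrays lie below all others.

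Of the 45 genes with a probe, 17 were well above background in the tumour channel on all 12 arrays and 15 on none. All 4 Timps passed the filter, as did 12 of 19 Adamts genes and 10 of 22 Mmp genes. None of the 4 interstitial collagenases passed: Mmp1a, Mmp1b and Mmp13 were well above background on none of the 12 arrays, and Mmp8, the neutrophil collagenase, on 1. Mmp9, the gelatinase best known from leukocytes, was above background on no array either, whereas its relative Mmp2, made mainly by fibroblasts, was on all 12. The other genes left out were Mmp10, Mmp12, Mmp16, Mmp20, Mmp21, Mmp25, Mmp28, Adamts3, Adamts6, Adamts7, Adamts10, Adamts12, Adamts13 and Adamts20. Of the 19 genes left out, 18 were not above background in the reference channel on any array, so these probes gave no signal in a mixed reference RNA against which their sensitivity could be read. Not well above background gives only an upper bound and does not show that a gene was silent.

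**Figure D2:**
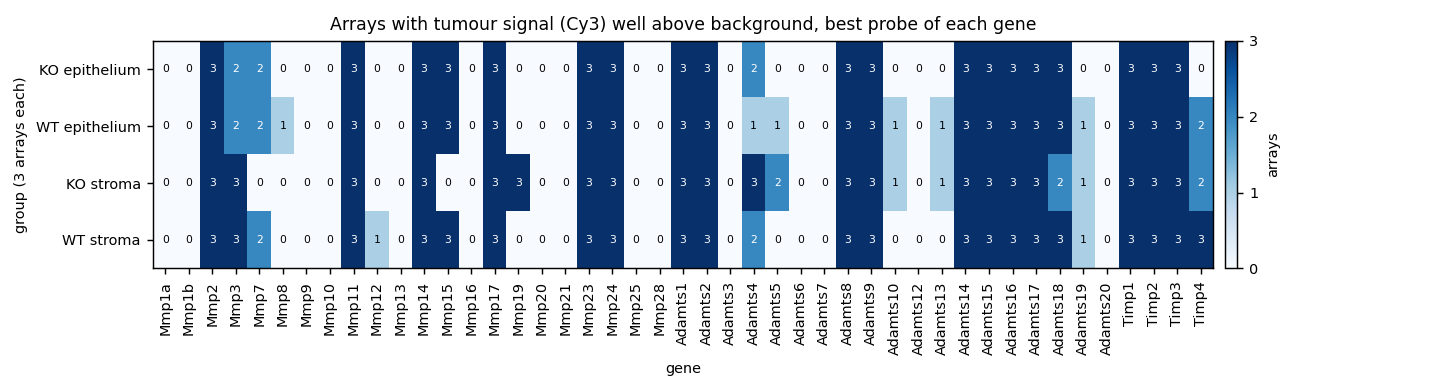
Number of arrays, out of 3 in each group, on which the best probe of each of the 45 genes was well above background in Cy3. Mmp19 was detected on the 3 KO stromal arrays and nowhere else, and Mmp15 on all arrays but the 3 of KO stroma.

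The genes left out and those retained were set beside their upstream sequence, because several inducible Mmp genes are textbook targets of AP-1, the transcription factor complex of Fos and Jun proteins. RefSeq promoter windows (assembly GRCm38.p6, 250 bases before to 50 after the start site) were given for 32 of the 46 genes. The letters TGAGTCA, searched on both strands, were present in the windows of 7 of the 32 genes, beside 5.95% of all 27025 genes with a window. The 7 genes lie near each other on chromosome 9, with windows between bases 7272264 and 7692139. They are Mmp1a, Mmp1b, Mmp3, Mmp7, Mmp10, Mmp12 and Mmp13. Of these, only Mmp3 and Mmp7 passed the filter in these tumours. Stretches around the match are shown for both of them and for 2 genes left out, Mmp10 and Mmp13, on the strand of the gene, with the match in capitals.
Mmp3 (chr9:7445749-7445809, plus strand): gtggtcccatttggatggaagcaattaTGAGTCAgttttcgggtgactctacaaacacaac
Mmp7 (chr9:7692000-7692060, plus strand): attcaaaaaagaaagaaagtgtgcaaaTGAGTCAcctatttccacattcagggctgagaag
Mmp10 (chr9:7502252-7502312, plus strand): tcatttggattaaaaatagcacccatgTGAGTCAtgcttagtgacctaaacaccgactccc
Mmp13 (chr9:7272452-7272512, plus strand): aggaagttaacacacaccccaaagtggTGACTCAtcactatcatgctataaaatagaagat
The match began 46 bases before the start site in Mmp3, 63 in Mmp7, 63 in Mmp10 and 35 in Mmp13, where it is on the other strand. A match is a description of these letters and not evidence of binding.

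Retinoic acid receptors bind direct repeats of AGGTCA. Neither the repeat spaced by 5 bases nor that spaced by 2, searched on both strands with no other letters allowed in either repeat, was found in the window of any of the 32 genes. Each is rare, with a match in 0.00913% of all windows, and the absence says only that these letters are not in these windows. The 250 bases before the start site are shown for Adamts2 and Timp1, the genes with the largest fitted positive differences between KO and WT stroma. Neither window holds any of the 3 motifs.
Adamts2 (chr11:50601835-50602084, plus strand): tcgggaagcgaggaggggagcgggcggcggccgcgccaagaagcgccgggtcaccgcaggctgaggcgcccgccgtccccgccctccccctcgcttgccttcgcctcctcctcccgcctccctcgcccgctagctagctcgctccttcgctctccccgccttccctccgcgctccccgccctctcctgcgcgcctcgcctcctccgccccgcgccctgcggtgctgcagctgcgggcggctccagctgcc
Timp1 (chrX:20869916-20870165, plus strand): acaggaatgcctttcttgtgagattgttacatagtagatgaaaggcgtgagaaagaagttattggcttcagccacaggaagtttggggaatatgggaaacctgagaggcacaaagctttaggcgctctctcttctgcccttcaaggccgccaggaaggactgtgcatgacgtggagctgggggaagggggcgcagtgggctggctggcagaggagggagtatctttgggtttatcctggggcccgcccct

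The first comparison asked how tumour stroma differed between KO and WT mice. The members that rose in KO stroma were the inhibitor Timp1, the procollagen-processing proteases Adamts2 and Adamts14, and the metalloproteinases Mmp19 and Mmp23. Those that fell were Adamts17, Adamts18 and the membrane-type enzyme Mmp15. Thus 8 of the 26 tested genes passed an adjusted p of 0.05 in limma, beside 6.31% of all 13350 genes (3.48% higher and 2.84% lower). Differences were positive for 21 of the 26, with a median of 0.79 on the log2 scale, beside a median of -0.01 over all genes. The KO and WT stromal values did not overlap for 13 of the 26, beside 26.3% of all genes. One of the 26, Mmp19, passed the filter only through the KO stromal arrays where it was high, so these counts are a description and not a measure of the list. In bulk tissue, fewer cells of a type and less RNA per cell cannot be told apart.

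**Figure D3:**
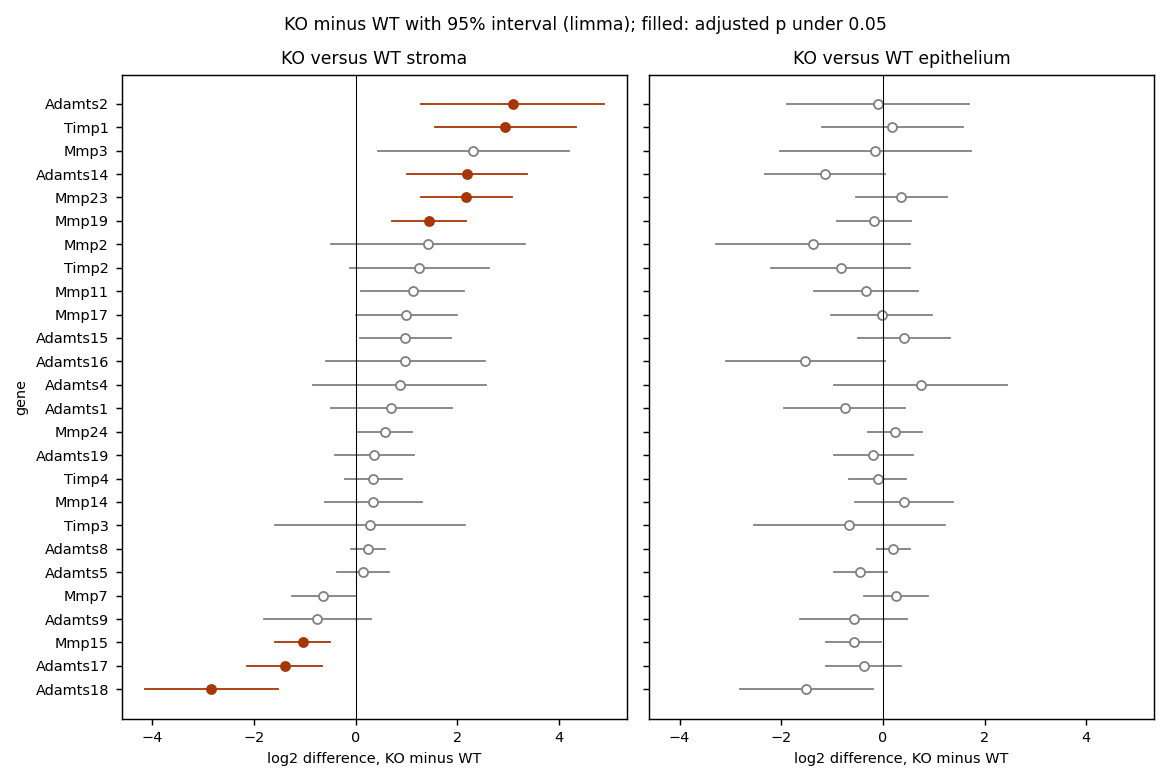
Log2 difference between KO and WT for the 26 tested genes in stroma (left) and epithelium (right), with 95% confidence intervals from limma. Filled points passed an adjusted p of 0.05, which 8 genes did in stroma and none in epithelium.

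Timp1, a secreted inhibitor of most Mmps that also acts as a growth factor, had log2 ratios of 0.84, 1.0 and 1.37 on the KO stromal arrays and -1.83, -3.36 and -0.43 on the WT stromal arrays. Every KO array was above the reference and every WT array below it, and WT stroma 2 lay at the level of the epithelial arrays. The difference was 2.94 (SE 0.63), a 7.68-fold higher level in KO stroma with an adjusted p of 0.0241. Timp2, which both inhibits Mmps and helps Mmp14 to activate Mmp2, had ratios of 1.84, 1.49 and 2.23 in KO stroma and 0.82, -0.27 and 1.26 in WT stroma. These groups did not overlap either, but the difference of 1.25 (SE 0.62) did not pass the test (adjusted p = 0.279). A second Timp2 probe, also above background on all 12 arrays, gave a difference of 1.32. Timp3 is held in the matrix and also inhibits Adam and Adamts enzymes. Its ratios were 0.91, -0.11 and 2.07 in KO stroma and 0.93, 0.25 and 0.83 in WT stroma. The KO values enclosed the WT values, and the difference was 0.28 (SE 0.85, adjusted p = 0.892). Timp4, a more tissue-restricted inhibitor, had ratios of -0.21, 0.70 and -0.45 in KO stroma and -0.38, -0.23 and -0.39 in WT stroma. Only KO stroma 3 was above the reference, and the difference of 0.35 (SE 0.25) did not pass (adjusted p = 0.485). Of the 4 inhibitors only Timp1 passed, and no test compared the 4 with each other.

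Adamts2 and Adamts14 remove the amino-terminal propeptide of fibrillar procollagens, and the third enzyme with this role, Adamts3, was not above background on any array. Adamts2 had log2 ratios of 3.38, 3.49 and 2.94 in KO stroma and 0.24, -0.84 and 1.14 in WT stroma. The 3 KO values were close together and above every WT value. The fitted difference was the largest among the 26 genes, 3.09 (SE 0.81, 8.52-fold), and its adjusted p of 0.0499 stood just under the threshold. Adamts14 had ratios of -0.66, -0.38 and 0.08 in KO stroma and -3.42, -2.22 and -1.90 in WT stroma. Again the groups did not overlap, and the difference was 2.19 (SE 0.53, 4.57-fold, adjusted p = 0.0375). A further probe of each gene was dim, above background on 2 arrays for Adamts2 and on 1 for Adamts14, and these probes gave differences of 0.11 and -0.13. The rise of both genes thus rests on 1 probe each.

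Among the Mmps, Mmp23, a small membrane-anchored enzyme released by cleavage, had ratios of 2.79, 1.29 and 2.11 in KO stroma and -0.39, -0.25 and 0.29 in WT stroma. The lowest KO array was above the highest WT array, and the difference was 2.18 (SE 0.41, 4.53-fold, adjusted p = 0.0164). Mmp19, which cuts basement membrane proteins, had ratios of 0.26, 1.69 and 0.25 in KO stroma and -0.79, -0.76 and -0.58 in WT stroma. It was well above background on the 3 KO stromal arrays and on no other array, so its ratio elsewhere is only a bound. Its fitted difference of 1.44 (SE 0.33) had an adjusted p of 0.0311. By its Cy3 signal it was at least 1.95-fold higher in KO than in WT stroma, a bound that was not tested. This bound compares Cy3 signals after loess and Aquantile normalisation and, with no dye swap, is open to dye bias.

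Mmp3 (stromelysin-1), which cuts proteoglycans, laminin and fibronectin and activates other Mmps, had ratios of 2.95, 4.04 and 2.09 in KO stroma and 1.01, 0.12 and 1.0 in WT stroma. The groups did not overlap, but the difference of 2.31 (SE 0.85) did not pass the test (adjusted p = 0.138). The SE comes from all 12 arrays, and the SD of Mmp3 was 0.98 in KO stroma and 1.94 in WT epithelium. Mmp2 (gelatinase A), the basement membrane collagenase, had ratios of 2.23, 2.02 and 1.80 in KO stroma and 0.98, 0.39 and 0.42 in WT stroma. These groups did not overlap, and the difference of 1.42 (SE 0.86) had an adjusted p of 0.387. Mmp2 too varied most in WT epithelium, where its SD was 2.28 against 0.22 in KO stroma. Mmp11 (stromelysin-3), a furin-activated enzyme known from stromal fibroblasts, had ratios of -0.84, -1.82 and -0.59 in KO stroma and -2.27, -3.14 and -1.20 in WT stroma. WT stroma 3 overlapped the KO group, and the difference of 1.12 (SE 0.46) did not pass (adjusted p = 0.187). A second Mmp11 probe gave a difference of 1.12 as well. Mmp17, a membrane-type enzyme with a lipid anchor, had ratios of 2.36, 3.45 and 2.26 in KO stroma and 1.67, 1.55 and 1.86 in WT stroma. These groups did not overlap, and the difference of 1.0 (SE 0.45) had an adjusted p of 0.231.

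The members that fell were also separate in their values. Their reference signal was dim: it was above background on 0 of 12 arrays for Adamts17 and Mmp15 and on 4 for Adamts18. The height of their ratios over reference therefore depends on a denominator near the floor. Adamts18, a protease with few known substrates that takes part in epithelial branching, had log2 ratios of 0.24, 0.70 and 2.18 in KO stroma and 4.34, 4.19 and 3.09 in WT stroma. No KO array reached the lowest WT array, and 1 of the 3 KO arrays was not well above background. The fitted difference was -2.84 (SE 0.59) with an adjusted p of 0.0227. Adamts17, which acts in the fibrillin microfibril network, had ratios of 2.96, 2.71 and 3.45 in KO stroma and 4.87, 3.73 and 4.70 in WT stroma. The groups were separate, and the difference was -1.40 (SE 0.34, 2.63-fold lower, adjusted p = 0.0357). Its second probe was above background on 2 arrays and gave 0.17. Mmp15, a transmembrane Mmp, had ratios of -0.01, 0.47 and 0.17 in KO stroma, with no array well above background, and 1.75, 0.88 and 1.12 in WT stroma. By its Cy3 signal it was at least 1.56-fold lower in KO stroma, a bound that was not tested and is open to dye bias. Its fitted difference of -1.04 (SE 0.25) had an adjusted p of 0.0344. All 3 genes had their lowest group mean in KO stroma, as the luminal marker list did.

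**Figure D4:**
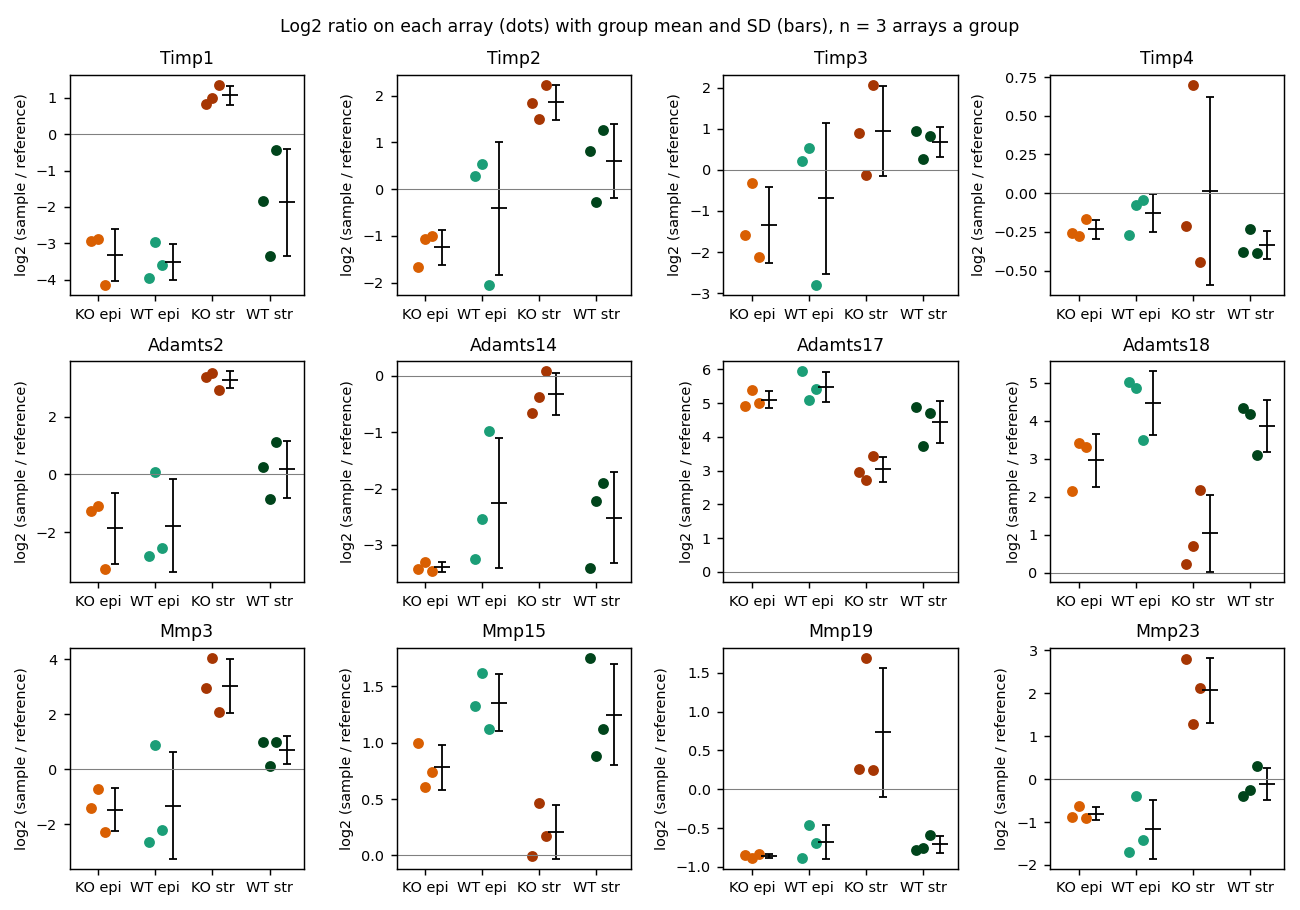
Log2 ratio of sample over reference on each array (dots) for 12 genes, with the mean and SD of the 3 arrays of a group (bars); each panel has its own scale. For Timp1, Adamts2, Adamts14 and Mmp23 the 3 KO stromal arrays lie above all other arrays, and for Adamts17 they lie below all others.

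The remaining 11 tested genes did not pass in stroma. Among the proteoglycan-cleaving Adamts genes (Adamts1, Adamts4, Adamts5, Adamts8, Adamts9 and Adamts15), differences ran from -0.76 for Adamts9 to 0.98 for Adamts15, and the smallest adjusted p was 0.191. Mmp14, the main cell surface activator of Mmp2, differed by 0.35 (adjusted p = 0.703). Mmp24, a membrane-type enzyme of the nervous system, differed by 0.58 (adjusted p = 0.191), and its second probe gave -0.06. Mmp7 (matrilysin), an enzyme of glandular epithelium, was above background on 2 of 3 arrays in each group except KO stroma, where it was on none. Its fitted difference of -0.63 did not pass (adjusted p = 0.228). No bound on the fold is given for Mmp7, because not all 3 WT stromal arrays were above background. Mmp7 and Adamts15 were above background in the reference channel on no array. Adamts16 differed by 0.98 (adjusted p = 0.48), and Adamts19, above background on 3 of 12 arrays, by 0.37 (adjusted p = 0.598).

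How many members passed depended on single libraries. Without WT stroma 1, none of the 8 passed, and without WT stroma 2 the count was 2 (Adamts17 and Mmp15). It was 1 without KO stroma 1, 3 without KO stroma 3, 4 without KO stroma 4, and 5 without KO epithelium 1 or KO epithelium 4. Over the 12 fits that left out 1 array, Mmp19 passed in 10, Mmp23 in 9, Adamts18 in 8, Timp1 and Mmp15 in 7, Adamts17 in 6, and Adamts2 and Adamts14 in 3 each. In every one of these fits the 8 genes kept their direction. The filter was not applied again in these fits, nor in those that left out a tumour. Mmp19, above background on the 3 KO stromal arrays alone, would not pass it with 1 of them left out. Its count is therefore no measure of stability. With Agilent's processed signals in place of normexp, the fitted differences of Mmp15 and Mmp19, each dim in 1 of the groups, were -3.01 and 4.0 in place of -1.04 and 1.44. The differences went with higher fibroblast, macrophage, endothelial, adipocyte and neutrophil markers and lower luminal and basal markers on the KO stromal arrays, and the part of these cell types in the result was not tested. In the reference channel, none of the 26 genes passed between KO and WT arrays in limma. Over all 13350 genes, 40 passed there in epithelium and 0 in stroma. Among the 26, the smallest adjusted p was 0.998 in stroma and 0.36 in epithelium. Adamts16 had the largest of these reference differences, -0.78 in epithelium and 0.76 in stroma.

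The same contrast in tumour epithelium gave no call. None of the 26 genes passed, beside 0.00749% of all genes (1 gene), and 2 of the 26, Adamts18 and Mmp15, had an unadjusted p under 0.05. The median difference was -0.18, beside 0.03 over all genes, and 18 of 26 were negative. KO and WT values did not overlap for 5 of the 26 (Adamts5, Adamts8, Adamts14, Adamts18 and Mmp15), beside 14% of all genes. Of these, Adamts5 was above background on 0 KO and 1 WT epithelial arrays, so its values lie near the floor. A second Adamts8 probe, above background on 8 of the 12 arrays, did overlap in epithelium (1.0 to 1.82 in KO and 0.39 to 1.02 in WT). Adamts16 had the largest fitted difference: its log2 ratios were -1.28, -0.15 and 0.39 in KO and -0.23, 0.91 and 2.87 in WT epithelium. These groups overlapped, WT epithelium 3 stood above the rest, and the difference was -1.53 (SE 0.71, adjusted p = 0.625), or -0.68 without that array. The second Adamts16 probe was above background on no array and gave 0.02. Adamts18 had ratios of 2.16, 3.42 and 3.31 in KO and 5.03, 4.87 and 3.51 in WT epithelium, and a difference of -1.51 (SE 0.59, adjusted p = 0.614). Its groups did not overlap, though KO epithelium 3 came close to WT epithelium 3.

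The genes that passed in stroma were also read in epithelium, where none passed. Timp1 had ratios of -2.93, -2.89 and -4.15 in KO and -3.95, -2.97 and -3.60 in WT epithelium, and the difference was 0.18 with a 95% interval of -1.20 to 1.57. Adamts2 had ratios of -1.26, -1.08 and -3.26 in KO and -2.82, 0.07 and -2.56 in WT epithelium, and differed by -0.10 (95% interval -1.89 to 1.70). The WT epithelium 2 array, with its high fibroblast markers, was the highest for Adamts2 in both epithelial groups. Adamts14 had ratios of -3.43, -3.30 and -3.46 in KO and -3.24, -2.54 and -0.98 in WT epithelium. Here KO lay below WT without overlap, and the difference of -1.14 (SE 0.53) had an adjusted p of 0.626. Mmp23 had ratios of -0.88, -0.62 and -0.91 in KO and -1.70, -0.39 and -1.41 in WT epithelium, and the difference was 0.36 (95% interval -0.54 to 1.26). Mmp15 had ratios of 1.0, 0.61 and 0.74 in KO and 1.33, 1.62 and 1.12 in WT epithelium, and the difference of -0.57 (SE 0.25) had an adjusted p of 0.614. Adamts17 had ratios of 4.91, 5.39 and 5.01 in KO and 5.94, 5.08 and 5.42 in WT epithelium, with overlap and a difference of -0.38. The intervals are wide, and differences of 2-fold or more in either direction lie inside those of Timp1 and Adamts2.

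The other members with full values also overlapped in epithelium. Timp2 had ratios of -1.68, -1.07 and -1.01 in KO and 0.27, 0.54 and -2.05 in WT epithelium, and Timp3 had -1.59, -0.33 and -2.12 against 0.20, 0.52 and -2.80. In both, WT epithelium 3 was the lowest array and the other WT arrays were above all KO arrays. Timp4 stayed between -0.28 and -0.04 on all 6 epithelial arrays and was well above background on no KO epithelial array. Mmp2 had ratios of -1.04, -0.17 and -1.37 in KO and 2.46, 1.10 and -2.0 in WT epithelium, the widest spread of any group among the 26 genes. Mmp3 had ratios of -1.43, -0.71 and -2.29 in KO and -2.66, 0.90 and -2.20 in WT epithelium, so that WT epithelium 2 again stood apart. Mmp11 stayed between -3.34 and -2.59 on the 6 epithelial arrays, Mmp17 between 0.33 and 1.82, and Mmp19 between -0.89 and -0.46, where it was not above background.

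The second comparison set the stroma of each tumour against its own epithelium. Over the 6 tumours, 8 members were higher in stroma: Timp1, Timp2, Adamts1, Adamts2, Adamts14, Mmp3, Mmp11 and Mmp23. The 2 members lower in stroma were Adamts17 and Adamts18, which had also fallen in KO stroma. Thus 10 of 26 passed, beside 15% of all genes (8.37% higher and 6.63% lower), and the median difference was 0.57, beside -0.03 over all genes. Only 3 of the 26 (Mmp23, Adamts17 and Adamts18) had the same sign in all 6 tumours, beside 15% of all genes. Of the 7 other called genes, 6 were negative in WT tumour 2 alone, and Adamts14 was negative in WT tumours 1 and 3. In WT tumour 2 the fibroblast markers were lower in stroma than in epithelium, by a mean of -0.92, against 1.19 to 5.88 in the other 5 tumours.

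**Figure D5:**
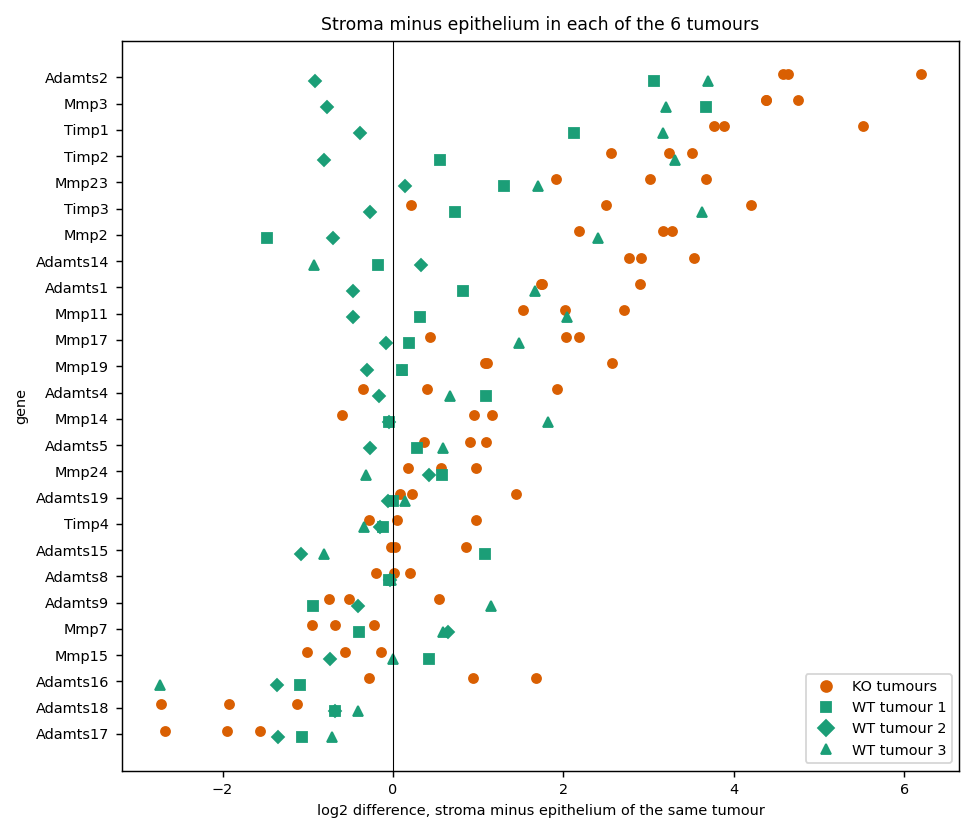
Log2 difference between stroma and epithelium of the same tumour for the 26 tested genes, with 1 symbol for each of the 3 KO tumours and a separate symbol for each WT tumour. For Adamts2, Mmp3 and Timp1 the KO tumours lie above 3.7, WT tumours 1 and 3 between 2.1 and 3.7, and WT tumour 2 below 0.

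Of the inhibitors, Timp1 differed between stroma and epithelium by 3.77, 3.89 and 5.52 in KO tumours 1, 3 and 4 and by 2.12, -0.39 and 3.17 in WT tumours 1, 2 and 3. In 5 of 6 tumours the value was positive, and the mean difference was 3.01 (SE 0.47, 8.07-fold, adjusted p = 0.0109). For Timp2 these values were 3.51, 2.56 and 3.24 in KO and 0.55, -0.81 and 3.31 in WT tumours, with a mean of 2.06 (SE 0.49, adjusted p = 0.0372). For Timp3 they ran from -0.27 in WT tumour 2 to 4.20 in KO tumour 4, and the mean of 1.83 did not pass (adjusted p = 0.105). For Timp4 the mean was 0.02 (95% interval -0.40 to 0.45).

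Adamts2 had the largest fitted difference of the 26 genes. Its values were 4.64, 4.57 and 6.20 in KO tumours and 3.07, -0.91 and 3.69 in WT tumours, with a mean of 3.54 (SE 0.60, 11.7-fold, adjusted p = 0.0138). Mmp3 followed with 4.37, 4.75 and 4.37 in KO and 3.67, -0.78 and 3.20 in WT tumours, and a mean of 3.26 (SE 0.56, 9.61-fold, adjusted p = 0.0138). Mmp3 was above background on 2 of 3 arrays in both epithelial groups, so its lowest epithelial values are bounds. Mmp23 was positive in every tumour, from 0.14 in WT tumour 2 to 3.67 in KO tumour 1, and its mean was 1.96 (SE 0.29, adjusted p = 0.0088). Mmp11 had values of 2.02, 1.53 and 2.71 in KO and 0.32, -0.47 and 2.04 in WT tumours, and a mean of 1.36 (SE 0.33, adjusted p = 0.0397). Its second probe gave 1.08.

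Adamts1, a versican-cleaving protease known from ovulation and vessels, had values of 1.74, 1.75 and 2.90 in KO and 0.82, -0.47 and 1.66 in WT tumours. Its mean was 1.40 (SE 0.30, adjusted p = 0.0274). On single arrays its ratios were -1.29, -0.80 and -0.41 on KO epithelial arrays, -0.29, 0.89 and -0.84 on WT epithelial arrays, 0.45, 0.95 and 2.49 on KO stromal arrays and 0.53, 0.42 and 0.82 on WT stromal arrays. Stroma overlapped epithelium only through WT epithelium 2. Adamts17 was lower in the stroma of every tumour, by -1.95, -2.68 and -1.56 in KO and -1.07, -1.35 and -0.72 in WT tumours, with a mean of -1.55 (SE 0.18, 2.93-fold lower, adjusted p = 0.00521). Adamts18 was as well, by -1.92, -2.72 and -1.13 in KO and -0.68, -0.68 and -0.41 in WT tumours, with a mean of -1.26 (SE 0.21, adjusted p = 0.0122). With Agilent's processed signals the mean for Adamts18 was -2.97, and without the tumour term it did not pass (adjusted p = 0.0745).

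Single tumours decided some of these calls. Leaving out any 1 of the KO tumours, or WT tumour 1, lowered the count from 10 to 7, and it was 10 without WT tumour 2 and 8 without WT tumour 3. Mmp3, Timp1, Mmp23, Adamts14, Adamts17 and Adamts18 passed in all 6 of these fits, Adamts2 in 5, Timp2 in 2, and Adamts1 and Mmp11 in 1 each. Fibroblast markers were higher in stroma too (8 of 11 passed), as were macrophage markers (8 of 9), and luminal markers were lower (8 of 9). Their part in the result was not tested.

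Taken within genotype, the difference between compartments was seen in the KO tumours. There 13 of 26 members passed, 11 higher and 2 lower in stroma, beside 20% of all genes (10.2% higher and 9.86% lower). Mmp19, which passed the filter only through KO stroma, is in this count too, so it is a description and not a measure of the list. The 11 were Adamts2 (5.14), Mmp3 (4.50), Timp1 (4.39), Timp2 (3.1), Adamts14 (3.07), Mmp2 (2.88), Mmp23 (2.87), Adamts1 (2.13), Mmp11 (2.08), Mmp19 (1.59) and Mmp17 (1.55), each with its fitted log2 difference. Mmp19 was at least 1.92-fold higher in KO stroma than in KO epithelium, where it was not above background. The 2 lower were Adamts17 (-2.06) and Adamts18 (-1.92). With Agilent's processed signals the fitted values were 4.72 for Mmp19 and -3.93 for Adamts18. Leaving out any 1 KO tumour lowered the count from 13 to 7, which takes 1 of 3 tumours away from this contrast. In the WT tumours none of 26 passed in limma, beside 0.00749% of all genes, and 5 had an unadjusted p under 0.05. The WT differences of these genes were in part not small: 2.03 for Mmp3, 1.95 for Adamts2 and 1.63 for Timp1, with adjusted p-values of 0.532, 0.573 and 0.56.

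Whether the difference between KO and WT was itself larger in stroma than in epithelium was tested as an interaction within tumours. No member passed in limma, beside 0% of all genes, and 11 of 26 had an unadjusted p under 0.05. Adamts14 came closest, with a KO effect larger by 3.33 (SE 0.39, adjusted p = 0.0553) in stroma. Within tumours Adamts14 was higher in stroma by 2.77, 2.91 and 3.54 in KO, and by -0.17, 0.33 and -0.92 in WT. No KO tumour was near any WT tumour in this measure. Adamts2 was next in size with 3.19 (SE 1.20, adjusted p = 0.236), then Mmp2 with 2.80 (adjusted p = 0.214), Timp1 with 2.76 (adjusted p = 0.208) and Adamts16 with 2.51 (adjusted p = 0.127). Without WT tumour 2 the value was 1.76 for Adamts2 and 1.75 for Timp1. For Adamts16 the mean of stroma minus epithelium was 0.78 in KO and -1.73 in WT tumours, and neither passed in limma. Its reference channel also differed between KO and WT arrays, by -0.78 in epithelium and 0.76 in stroma, without passing. On stromal arrays the Adamts16 ratios were 0.40, 0.79 and 0.11 in KO and -1.32, -0.45 and 0.13 in WT. Its stroma was lower than its epithelium in all 3 WT tumours and in 1 of 3 KO tumours. A call in stroma beside none in epithelium is therefore not shown to be a difference between compartments for any of these genes.

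Other genes of matrix proteolysis were counted from lists that overlap the fibroblast markers in Fap, Col1a1, Col1a2, Col3a1 and Dcn. Of 8 Adam proteases, the membrane-bound relatives that shed cell surface proteins, 3 rose in KO stroma (Adam15 by 1.96, Adam19 by 2.0 and Adam33 by 1.09) and none fell, beside 6.31% of all genes called. Of 23 other matrix proteases, inhibitors and cofactors, 3 rose: Bmp1, which removes the other, carboxy-terminal propeptide of procollagens, by 2.43, Fap, a serine protease of activated fibroblasts, by 2.68, and Ctsb, a lysosomal cathepsin, by 1.71. None of 4 tested plasminogen system genes passed, although all 4 differences were positive, and the smallest adjusted p was 0.0782 for the urokinase receptor Plaur. The other 6 genes of that list, among them the activators Plau and Plat, were dropped by the filter. Of 13 substrates, Nid1, a basement membrane linker, rose by 2.96, so that 7.69% passed, close to the 6.31% of all genes, and the median of the 13 was 1.19. In epithelium no gene of these 4 lists passed in limma, and the smallest adjusted p was 0.614.

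Against their own epithelium, 5 of the 8 Adam genes were higher in stroma, beside 15% of all genes called in either direction, and Plaur was higher by 2.15 among the plasminogen system genes. Of the 23 others, 10 were higher, led by the procollagen C-proteinase enhancer Pcolce (3.71), and St14, the epithelial protease matriptase, was lower (-1.11). Among the 13 substrates, Col1a1, Col1a2, Col3a1, Fn1 and Nid1 were higher, by 2.54 to 4.46. The procollagen-processing enzymes Adamts2, Adamts14 and Bmp1 and the collagen genes had differences of one sign in KO against WT stroma, but none of the collagen genes passed there.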

How the data were processed

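RNA from 12 laser-captured samples (4 groups of 3) was measured on 2-colour Agilent arrays, Cy3 for the sample and Cy5 for a common reference, per the labels. The authors' scanner files, made with Feature Extraction 10.7.3.1 per the file headers, hold for each spot its median intensity, that of its background, quality flags and a log10 ratio (Cy5 over Cy3). A deposited table of log2 values comes with no statement, in the sources used here, of how it was made. Its 6 epithelial columns ran opposite to the scanner ratios of sample over reference (r from -0.925 to -0.895 across spots) with medians from -0.05 to 0.02, and were used with the sign turned. Its 6 stromal columns matched no array of their own (r from -0.005 to 0.002), so their scale, centring and direction are unknown and they were left out.

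An array holds 62976 spots, with 3671 controls among them. With limma 3.58.1 in R 4.3.3, background was corrected by normexp (offset 50, which shrinks ratios of dim probes) and ratios by loess within arrays, with controls at weight 0. Non-uniform spots were set missing (211 on WT epithelium 3, at most 16 elsewhere) and no spot was saturated. Spots were averaged to 55681 probes, of which 27235 were named through a RefSeq gene table (GRCm38.p6). The headers name another build, so no gene coordinates are given beyond the RefSeq promoters. The filter asked for Cy3 well above background on 3 or more of the 12 arrays, and each gene was represented by its brightest probe past it. The number of arrays limits the precision.

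Tests used lmFit and eBayes, and p-values were adjusted over 13350 genes by the Benjamini-Hochberg method. KO and WT were compared through 4 group means over 12 arrays (8 residual degrees of freedom). Compartments and the interaction were tested with a fixed term for each tumour (4 residual degrees of freedom). Same-numbered arrays of a genotype were taken as 1 tumour, from the titles and the series' design text. Their deviations correlated at 0.09 for KO tumour 1 and at 0.23 to 0.45 for the others. The script was tested on simulated data. Every member is named. Full values are given for members passing any test, for the Timps and for the 2 largest differences of each test. The members and lists were chosen with earlier results of these data known. Some genes of the other lists are not reported here.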

Additional observations from a re-analysis of the deposited data

Results flagged for a closer look

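Adamts14, the procollagen-processing protease described above, had fitted KO differences of opposite sign in the compartments. In limma they were -1.14 in epithelium, which did not pass (adjusted p = 0.626), and 2.19 in stroma (adjusted p = 0.0375). The KO arrays were above all WT arrays in stroma. In epithelium they were below all WT arrays, but the highest KO array (-3.30) was close to WT epithelium 1 (-3.24). The KO effect on Adamts14 was larger in stroma by 3.33 on the log2 scale. The interaction test in limma gave an adjusted p of 0.0553, and the adjusted p ran from 0.0359 to 0.226 over 14 alternatives, under the threshold in 3 of them. Its second, dim probe showed no such difference (-0.10 in epithelium and -0.13 in stroma).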

How the results depend on the processing

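Calls between KO and WT stroma were the least stable. The 8 became 4 with Agilent's processed signals (3 higher and 1 lower), 2 with median centring (1 and 1; over all genes 50 higher and 151 lower, against 464 and 379), 5 with Cy3 above background on all 12 arrays, 4 with the number in the titles as a block, 2 with the 6 stromal arrays alone (292 genes called), and 0 to 8 when 1 array was left out. Deviations of same-numbered KO and WT arrays (numbers 1 and 3) correlated at 0.30 and -0.30 in epithelium and at 0.04 and -0.06 in stroma. Whether that number pairs samples across genotypes is not known here. With tumour as a random block (correlation 0.22) 7 passed. Stroma against epithelium gave 7 to 11 in the 14 alternatives, 6 to 10 of them among the original 10, with 9 without the block. Within KO tumours 13 became 14 without the block and 7 to 13 with 1 tumour left out. The interaction's 0 became 1 with Cy3 above background on all arrays, 1 with array weights, and 0 to 2 with 1 tumour left out. In epithelium 0 members passed in all 23 alternatives, and within WT tumours in all 14. Among the members recomputed, signs turned for Timp1, Timp3 and Timp4, in comparisons where they had not passed. For Timp1 in epithelium the value was -0.094 with median centring, which moved the median of all genes from 0.03 to -0.17, and -0.039 to 0.59 with 1 array left out. For Timp4 between compartments it was -0.072 with median centring and -0.16 to 0.15 with 1 tumour left out, and in epithelium 0.032 with the number as a block. For Timp3 it was -0.28 to 0.82 in stroma with 1 array left out, and -0.0051 to 2.07 in the interaction with 1 tumour left out. The cause was not tested. Aquantile leaves ratios unchanged by construction. The all-array filter left 17 members, without Mmp3, Mmp7, Mmp15, Mmp19, Adamts4, Adamts5, Adamts18, Adamts19 and Timp4.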
